A study of Mus musculus with 20 samples.

Results

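The amygdala and the hippocampus of WT mice were compared on 10 of the 20 arrays of a study of fear memory, 5 of each region. The 10 arrays were taken by their labels, that is every array titled as WT amygdala and every array titled as WT hippocampus, and each amygdala array was set against the hippocampal array with the same time label. The 5 labels were baseline, for mice without treatment, and 0 hr, 1 hr, 48 hr and 1 wk, for mice given conditioned fear (CF) training with 1 shock of 0.7 mA for 2 sec. All were males of the strain C57BL/6 aged 2 mo, and the 1 wk mice had been through a testing trial of 5 min before they were killed. The tissue was a bilateral micropunch, and RNA of 5 to 10 mice was pooled on each Affymetrix Mouse Gene 1.0 ST array, so that differences between single mice cannot be seen. The other 10 arrays came from DKO mice, which lack Adcy1 and Adcy8, with the same regions and labels. WT and DKO mice were not littermates, and DKO mice had a history of doxycycline and could carry the transgenes of a rescue line, so that genotype cannot be told apart from these.

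Each array gave log2 values by RMA, and a difference of 1 on this scale is a 2-fold difference in signal. A transcript cluster is the group of probes that reports a gene or part of one, and 28853 of them were tested. The time label entered the test as a block, so that the difference within each of the 5 pairs was averaged. A call below means an adjusted p at or below 0.05 by limma over all transcript clusters. Since there was 1 pooled array per region and label, p-values measure the spread between pools taken at different times. The sources do not say whether both regions of a label came from the same mice.

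The amygdala is a group of nuclei deep in the temporal lobe that attach emotional value to events. Its basolateral complex is built mostly of excitatory neurons related to those of the cortex, while its central and intercalated nuclei hold GABA neurons that share their origin with the neurons of the striatum. The hippocampus is a folded sheet of excitatory neurons, the granule cells of the dentate gyrus and the pyramidal cells of fields CA3, CA2 and CA1, and serves memory of places and contexts.

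The WT amygdala had 1355 transcript clusters higher than the WT hippocampus (4.7% of those tested) and 846 lower (2.93%). In terms of genes, with 1 transcript cluster for each of 19938 genes, 1117 were higher (5.6%) and 646 lower (3.24%). These shares, taken over genes of any level, are the ones to set beside the counts of every gene list below. Most of these differences were below 1.5-fold, and 412 (1.43%) were both called and at least 1.5-fold higher, while 246 (0.853%) were called and at least 1.5-fold lower. At 2-fold the counts were 114 (0.395%) higher and 63 (0.218%) lower. Either direction counted, 2201 transcript clusters (7.63%) and 1763 genes (8.84%) were called. The median log2 difference over all genes was 0.00. On 1694 transcript clusters (5.87%) every amygdala array lay above every hippocampal array, and on 965 (3.34%) every amygdala array lay below.

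Within a region the arrays correlated at 0.988 to 0.996 in the amygdala and 0.994 to 0.996 in the hippocampus, and between the regions at 0.984 to 0.993 over all transcript clusters. The array medians lay between 6.68 and 6.83. Without the 48 hr pair, which had the smallest difference for 785 of the 1355 higher calls, 1838 transcript clusters were higher and 1046 lower.

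Marker lists of both regions were counted. They were chosen with earlier results of these data known, so the counts are a description and no independent check of the labels. Of 40 genes measured on a list of amygdala nucleus markers, 25 were higher in the amygdala and 2 lower, with a median log2 difference of 0.46, against 0.00 over all genes. Of 40 markers of the hippocampal fields, 17 were lower in the amygdala and 7 higher, with a median of −0.27. Prox1, Tdo2, Lct, Dsp, Npnt and Stxbp6 made up the 6 lower calls among 10 dentate granule cell markers, and 5 of 8 CA3 markers were lower as well. Each of these subgroups also had 1 marker higher in the amygdala, by 0.41 for the dentate and 0.67 for CA3. Of the 7 CA1 markers 0 were lower and 3 higher in the amygdala, namely Ccn3 (log2 difference 1.07), Wfs1 (0.65) and Man1a (0.51). A positive difference was found for 4 of the 7, and their median was 0.11. The call of Man1a was lost with baseline, 0 hr or 1 hr left out. The 12 central nucleus markers had 9 higher and 1, Prkcd, lower (−0.52). The 6 intercalated markers had all 6 higher, and the 12 basolateral markers had 5 higher and 1, Thrsp, lower (−0.84).

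Markers of tissue that borders the regions were counted as well. Of 32 markers of striatal projection neurons 20 were higher in the amygdala and 1 lower, and their mean level was 8.27, 8.09, 8.24, 7.99 and 7.89 on the amygdala arrays in the order of the labels, against 7.36 to 7.49 on the hippocampal arrays. Many of these genes are also used by the central and intercalated nuclei, so that the list cannot tell striatum from those nuclei. Of 19 cortex markers 7 were higher in the amygdala and 1, Bcl6, was lower (−1.09), and 18 had a positive difference. Of 17 markers of the thalamus, which lies under the hippocampus, 7 were lower in the amygdala and 0 higher, and their mean level was 7.0 to 7.11 on the amygdala arrays and 7.23 to 7.65 on the hippocampal arrays, with the highest value on the 1 wk array. The 12 choroid plexus markers gave no call in either direction, but their mean level ran between 7.09 and 8.18 on the amygdala arrays and between 7.21 and 8.16 on the hippocampal arrays. The part of neighbouring tissue in the differences given below was not tested.

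**Figure D1:**
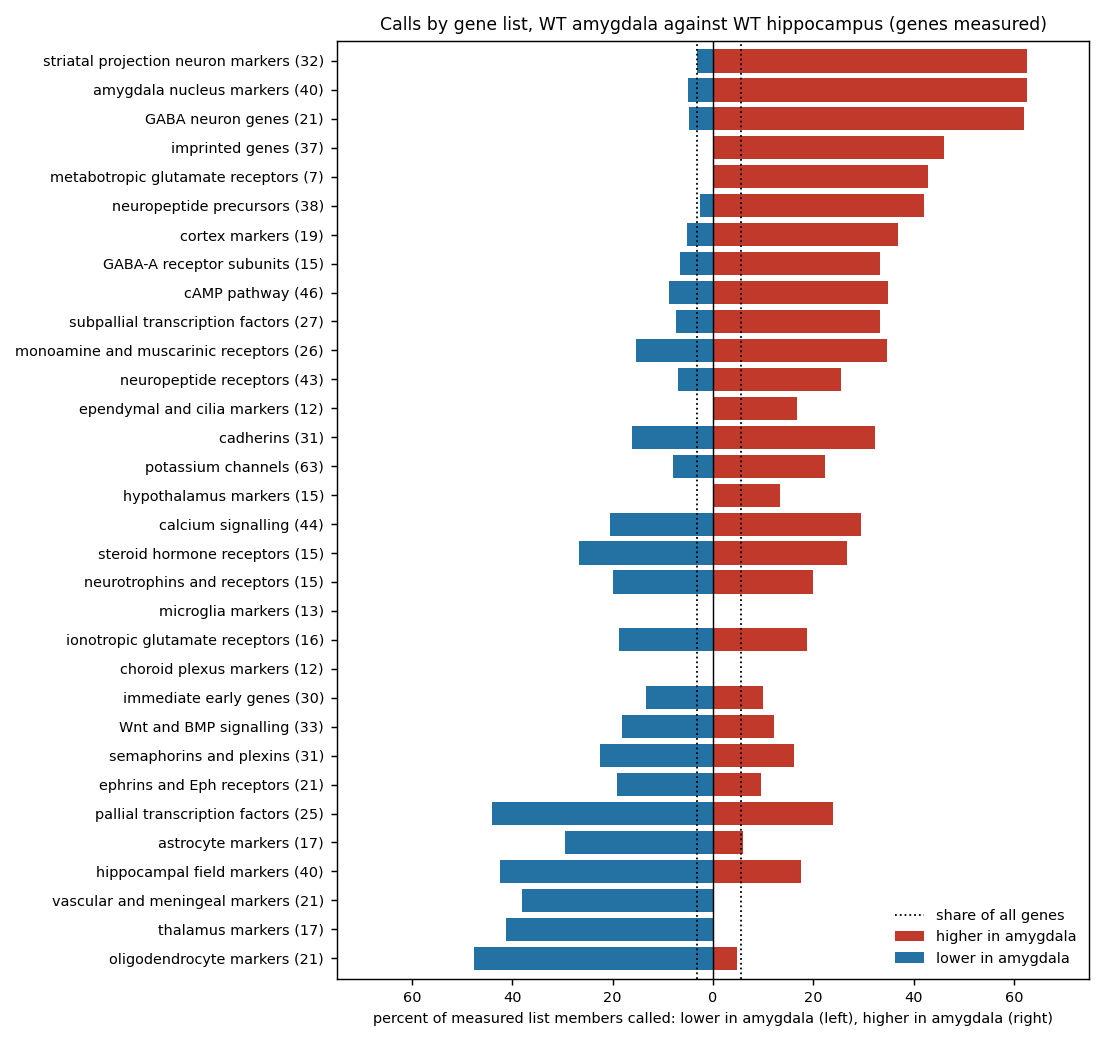
Percent of the measured members of each gene list that were called higher (red, to the right) or lower (blue, to the left) in the WT amygdala than in the WT hippocampus, with the number of genes measured in parentheses and dotted lines at the share of all genes, 5.6% higher and 3.24% lower. Striatal, amygdala and GABA neuron lists lie at the top with 20 of 32, 25 of 40 and 13 of 21 members higher, and oligodendrocyte markers lie at the bottom with 10 of 21 lower. Lists can share members, as the striatal and amygdala lists share Tac1 and Penk, so their counts are not independent.

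The 15 genes with the largest excess in the amygdala included the peptide precursors Tac1, Nts, Penk and Grp. Tac1, the precursor of substance P, stood at 10.91, 10.26, 10.98, 9.84 and 10.04 on the amygdala arrays in the order of the labels, against 7.50, 7.86, 8.0, 8.49 and 7.81 on the hippocampal arrays. Every amygdala array was above every hippocampal array, and the 48 hr arrays lay closest together. The log2 difference was 2.47 (standard error 0.23, adjusted p = 0.000184 by limma). Penk, the precursor of the enkephalins, was at 12.10, 12.05, 12.25, 11.78 and 11.81 in the amygdala and 9.73, 9.87, 9.65, 10.67 and 9.80 in the hippocampus, and the log2 difference was 2.06 (standard error 0.17, adjusted p = 0.000114). Again the groups did not overlap, and the 48 hr array was the highest of the hippocampus. Meis2, a homeobox factor of the developing striatum and amygdala, averaged 9.46 ± 0.35 in the amygdala and 7.26 ± 0.34 in the hippocampus (SD, n = 5 arrays each), a difference of 2.20. The differences were 2.11 for Nts, the precursor of neurotensin, 1.97 for Grp, gastrin-releasing peptide, and 1.97 for Sema3a, a secreted guidance cue. Ldb2, a partner of LIM homeobox factors, differed by 1.90, and Nr2f2, an orphan nuclear receptor also called COUP-TFII, by 1.81. The calcium-binding protein Necab1 and the potassium channel subunit Dpp10 differed by 1.90 and 2.00, and Vat1l by 2.03. Of the 15 genes with the largest differences, the others were Atp6ap1l (1.97), Gabra3 (1.82), Camk2d (1.79) and B130024G19Rik (1.79). Myl4 and Arhgap6 (1.70 and 1.44) joined them among the 10 genes with the widest gap between the lowest amygdala array and the highest hippocampal array.

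On the side of the hippocampus the largest difference was that of Prox1, a homeobox factor that dentate granule cells need for their identity. It stood at 6.74, 6.75, 7.03, 7.46 and 6.66 on the amygdala arrays, against 9.36, 9.27, 9.29, 9.14 and 9.34 on the hippocampal arrays. The groups were far apart, with the highest amygdala value and the lowest hippocampal value both at 48 hr. The log2 difference was −2.35 (standard error 0.13, adjusted p = 4.06e-05 by limma). Tdo2, a tryptophan dioxygenase found in granule cells, was at 4.57, 5.05, 4.51, 5.43 and 4.79 in the amygdala and 6.85, 6.75, 6.84, 6.71 and 6.71 in the hippocampus, a log2 difference of −1.90 (standard error 0.14, adjusted p = 6.46e-05). Its amygdala values are among the lowest of the genes named here. Zbtb20, a zinc finger factor that specifies hippocampal neurons, averaged 9.58 ± 0.38 in the amygdala and 11.24 ± 0.14 in the hippocampus (SD, n = 5 arrays each), a difference of −1.66, and its second transcript cluster differed by −1.48. Lct, which encodes lactase and marks granule cells in the mouse, differed by −1.77, the integrin subunit Itga8 by −1.65 and the desmosomal protein Dsp by −1.51. Ptgds, the prostaglandin D synthase of meninges and oligodendrocytes, differed by −1.62. The cation channel Trpc6 (−1.46), the iodotyrosine deiodinase Iyd (−1.43), the retinaldehyde dehydrogenase Aldh1a1 (−1.43) and the scaffold protein Iqgap2 (−1.40) followed, along with Epha7, Sema5a and Nr3c2, which are described with their families. Vwa3b is the one gene among the 15 whose 8 transcript clusters spread widely. All 8 were lower in the amygdala, with differences between −1.87 and −0.38, and the brightest of them gave −0.78.

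**Figure D2:**
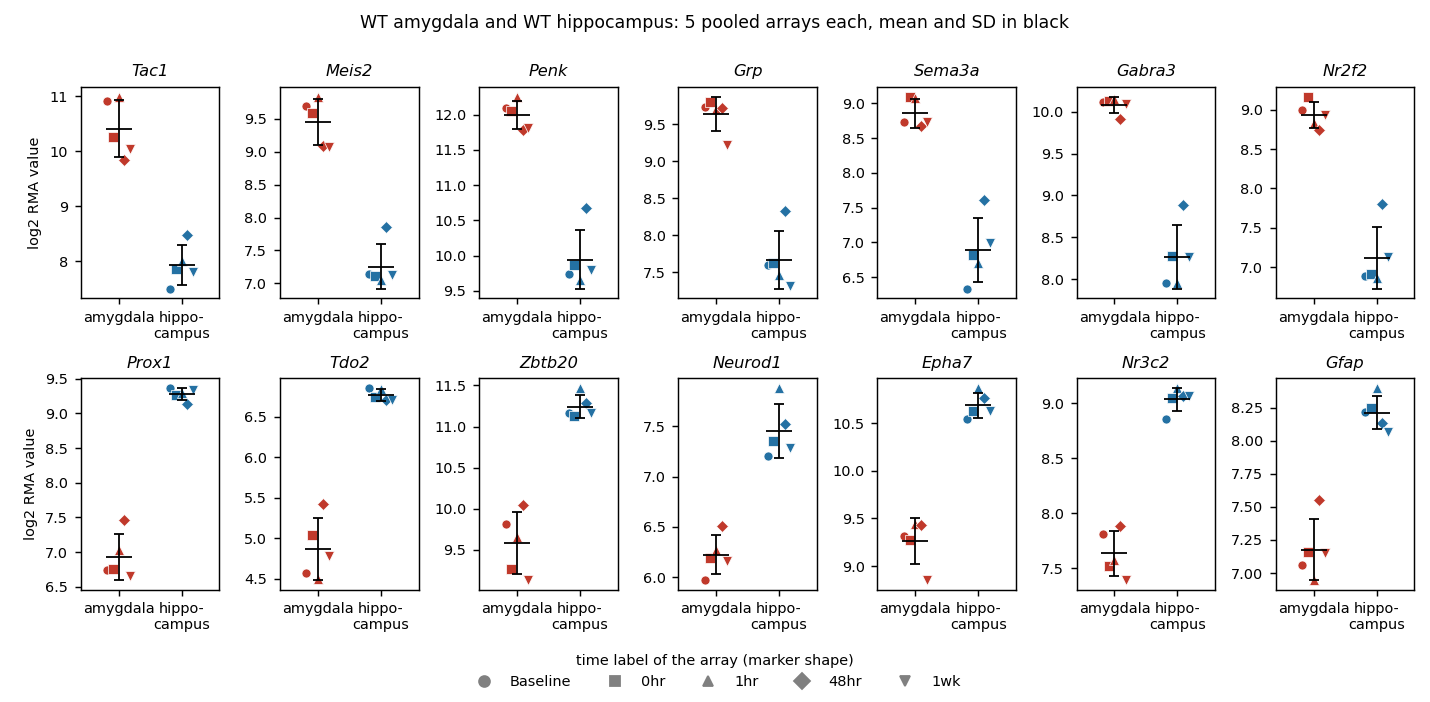
Log2 RMA values of 14 genes on the 5 WT amygdala arrays (red, left) and the 5 WT hippocampal arrays (blue, right), with the marker shape for the time label and black bars for mean and SD. The upper row holds genes higher in the amygdala and the lower row genes lower there, no pair of groups overlaps, and for all 7 upper genes the highest hippocampal array is that of 48 hr.

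To show the sequence beside the values, the promoters of a gene from each end are given, from 250 bases before to 50 bases after the start site, as RefSeq lists them for assembly GRCm38.p6. Capitals mark CAGATG, an E-box of the kind that Neurod factors bind, and TGACG, the core of the cAMP response element, on either strand. The Tac1 window is chr6:7554811-7555110 on the + strand.

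Tac1: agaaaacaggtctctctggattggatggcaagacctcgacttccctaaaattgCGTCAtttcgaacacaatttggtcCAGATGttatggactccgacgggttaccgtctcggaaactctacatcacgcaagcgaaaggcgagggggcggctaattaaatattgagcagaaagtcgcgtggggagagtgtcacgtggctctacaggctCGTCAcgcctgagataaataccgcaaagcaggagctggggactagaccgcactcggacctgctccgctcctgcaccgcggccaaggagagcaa

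Prox1 has 2 windows in RefSeq, and the one with a match is chr1:190170778-190171077 on the − strand.

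Prox1: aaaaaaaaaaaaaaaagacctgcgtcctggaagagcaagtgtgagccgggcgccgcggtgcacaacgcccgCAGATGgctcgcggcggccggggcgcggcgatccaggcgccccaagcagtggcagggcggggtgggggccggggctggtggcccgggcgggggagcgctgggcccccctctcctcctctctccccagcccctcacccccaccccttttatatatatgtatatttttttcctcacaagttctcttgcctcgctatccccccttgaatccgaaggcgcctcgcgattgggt

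A promoter was matched for 10 of the 15 genes highest in the amygdala and for 15 of the 15 genes lowest there. CAGATG or its reverse complement was found in 2 of the 10 (Dpp10 and Tac1) and in 4 of the 15 (Aldh1a1, Iyd, Prox1 and Ptgds), and in 17.2% of all 32851 windows. TGACG was found in 2 of the 10 (Nts and Tac1), in 3 of the 15 (Iyd, Sema5a and Trpc6) and in 20.8% of all windows. These are matches of letters, not bound sites.

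Transcription factors were counted by the part of the forebrain they are known from. Of 25 factors of the pallium, the part of the forebrain that gives rise to cortex and hippocampus, 11 were lower in the amygdala and 6 higher, with a median log2 difference of −0.27. Neurod1, which granule cells need to form, was at 5.97, 6.19, 6.27, 6.51 and 6.17 in the amygdala and 7.21, 7.36, 7.88, 7.53 and 7.29 in the hippocampus. The ranges lay well apart, and the difference was −1.23 (standard error 0.09, adjusted p = 6.39e-05 by limma). Its relatives Neurod6 (−1.27) and Neurod2 (−0.37) were lower too, as were the nuclear factor I genes Nfib (−0.88), Nfia (−0.82) and Nfix (−0.81). Pallial factors higher in the amygdala were Etv1 (0.98), Mef2c (0.63), Pax6 (0.45), Nr2f1 (0.41), Fezf2 (0.35) and Cux1 (0.27). Of 27 factors of the subpallium, the source of striatal and most GABA neurons, 9 were higher in the amygdala and 2 lower. Besides Meis2 these were Rarb (1.14), Dlx5 (0.95), Pbx3 (0.95), Isl1 (0.93), Foxp2 (0.91), Meis1 (0.89), Dlx6 (0.78) and Tshz1 (0.48), and the lower ones were Zfhx4 and Zic1 (−0.45 and −0.44). Dlx6 had the tightest pairs, with differences between 0.65 and 0.86 over the 5 labels.

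Of 38 neuropeptide precursors 16 were higher in the amygdala and 1 was lower. After Tac1, Nts, Penk and Grp came Tac2, the precursor of neurokinin B, at 8.04, 8.17, 8.52, 7.39 and 8.11 in the amygdala against 6.24, 6.24, 6.38, 6.41 and 6.29 in the hippocampus. Here the hippocampal arrays lay within a narrow band and the amygdala array of 48 hr was the lowest of its group. The difference was 1.73 (standard error 0.14, adjusted p = 9.63e-05 by limma). Crh, corticotropin-releasing hormone, differed by 1.04, but the amygdala arrays ran between 6.17 and 7.25 and the pairs between 0.22 and 1.75. Sst, somatostatin, differed by 1.02, Gal, galanin, by 0.78, Cartpt by 0.77, Vip by 0.67, Pdyn, prodynorphin, by 0.57, Trh, thyrotropin-releasing hormone, by 0.51 and Npy, neuropeptide Y, by 0.41. The granin Chgb, a cargo protein of secretory granules, was the one lower precursor (−0.38), while its relatives Vgf (0.44), Chga (0.40) and Scg2 (0.36) were higher.

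Of the receptors for these peptides, 11 of 43 were higher in the amygdala and 3 lower. Trhr, the receptor for thyrotropin-releasing hormone, was at 7.46, 7.69, 7.42, 6.93 and 7.34 in the amygdala and 5.47, 5.70, 5.36, 6.07 and 5.61 in the hippocampus. The groups did not overlap, and the difference of 1.73 (standard error 0.15, adjusted p = 0.000143 by limma) was the largest of the list. The 3 classical opioid receptors differed in size, with 1.33 for the kappa receptor Oprk1, 0.48 for the mu receptor Oprm1 and no call for the delta receptor, and the nociceptin receptor Oprl1 was higher by 0.41. The somatostatin receptor Sstr2 (1.05), the cholecystokinin receptor Cckbr (0.68) and the tachykinin receptors Tacr1 (0.58) and Tacr3 (0.36) were higher. The tachykinin precursors Tac1 and Tac2 were thus higher in the same region as these 2 receptors. The call of Tacr3 was lost with baseline, 0 hr, 1 hr or 1 wk left out. The neuropeptide Y receptors Npy1r (−0.32) and Npy2r (−0.36) were lower, against the direction of Npy. These 2 calls were not firm. Npy1r was not called with baseline, 0 hr, 1 hr or 1 wk left out, and Npy2r with any 1 label but baseline left out. After each array was centred on its median Npy2r was not called (adjusted p = 0.0523 by limma), and the list had 1 lower call instead of 3.

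Genes of GABA neurons were higher in the amygdala in 13 of 21 cases and lower in 1. Gad2 and Gad1, the enzymes that make GABA, differed by 0.85 and 0.39, and the vesicular transporter Slc32a1 by 0.56. Pvalb, parvalbumin, which marks fast-spiking interneurons and is also made elsewhere in the forebrain, was the exception at 9.39, 8.81, 8.67, 9.16 and 9.02 in the amygdala against 9.53, 9.82, 9.75, 9.94 and 9.97 in the hippocampus. The arrays did not overlap, but the pair of the baseline arrays was close. The difference was −0.79 (standard error 0.12, adjusted p = 0.00343 by limma).

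The subunits of the GABA-A receptor, a chloride channel of 5 subunits whose makeup sets its response to drugs such as benzodiazepines, had 5 of 15 higher in the amygdala and 1 lower. Gabra3, the alpha 3 subunit, stood at 10.12, 10.13, 10.15, 9.91 and 10.09 in the amygdala and 7.95, 8.27, 7.95, 8.88 and 8.27 in the hippocampus, a difference of 1.82 (standard error 0.15, adjusted p = 0.000101 by limma). The amygdala arrays were nearly level, and the one hippocampal array above the rest was that of 48 hr. Gabrg1 (1.64), Gabrg3 (1.06), Gabrq (0.57) and Gabra2 (0.42) were higher as well. Gabra5, the alpha 5 subunit known for extrasynaptic receptors of pyramidal cells, was lower at 9.47, 9.0, 9.27, 9.44 and 8.88 in the amygdala, against 9.93, 10.09, 10.21, 10.20 and 10.06 in the hippocampus. This difference of −0.89 (standard error 0.10, adjusted p = 0.000474) was the only lower call among the 15 subunits measured, and 9 subunits were not called.

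Glutamate receptors were called in both directions. Among 16 ionotropic subunits 3 were higher, that is Gria4 of the AMPA receptors (0.77), Grik3 of the kainate receptors (0.88) and Grin3a of the NMDA receptors (0.81). Another 3 were lower, 1 from each of the same families, namely Gria1 (−0.34), Grik4 (−0.48) and Grin2a (−0.89). Grin2a averaged 9.19 ± 0.19 in the amygdala and 10.08 ± 0.12 in the hippocampus (SD, n = 5 arrays each), while Grin2b, which replaces it in many receptors, differed by −0.23 and was not called (adjusted p = 0.0973). Of 7 metabotropic receptors 3 were higher in the amygdala and 0 lower, led by Grm8, a presynaptic receptor that restrains release. It was at 8.81, 8.92, 8.98, 8.32 and 8.49 in the amygdala and 6.53, 7.03, 6.93, 7.43 and 6.98 in the hippocampus. The groups were apart by 0.89 at their closest arrays, and the fit by limma gave 1.72 (standard error 0.16, adjusted p = 0.00021).

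Receptors for monoamines and acetylcholine were called in both directions, 9 of 26 higher in the amygdala and 4 lower. Drd1 and Drd2, the dopamine receptors of striatal neurons, differed by 1.12 and 1.14. Drd5, the other receptor of the D1 class, was at 7.12, 6.83, 6.76, 7.61 and 6.96 in the amygdala and 8.18, 8.23, 8.62, 8.34 and 8.45 in the hippocampus. Its groups did not overlap, so that the 2 receptors of this class lay on opposite sides, with −1.31 for Drd5 (standard error 0.14, adjusted p = 0.000321 by limma). For serotonin, Htr2c (1.49), Htr1b (0.83), Htr1f (0.73), Htr1d (0.68), Htr2a (0.53) and Htr5a (0.40) were higher, and Htr1a (−0.57) and Htr4 (−0.38) were lower. Htr2c is also made in quantity by the choroid plexus. It was at 9.79, 9.35, 9.08, 8.89 and 9.49 in the amygdala and 8.07, 8.10, 8.20, 7.50 and 7.27 in the hippocampus. The 2 lowest hippocampal values were those of 48 hr and 1 wk, where the choroid plexus list was low too (7.40 and 7.21, against 7.99 to 8.16 on the other hippocampal arrays). Muscarinic receptors split into Chrm5 (0.52) and Chrm3 (−0.80).

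The cAMP pathway, which turns receptor signals into activity of protein kinase A and which the study set out to disturb through its calcium-stimulated cyclases, had 16 of 46 genes higher in the amygdala and 4 lower. Of 10 adenylyl cyclases, Adcy5 (0.96), the main cyclase of the striatum, and Adcy3 (0.38) were higher. Adcy2 (−0.37), Adcy9 (−0.44) and Adcy1 were lower, and Adcy8 was not called (−0.31, adjusted p = 0.113). Adcy1, a cyclase driven by calcium and calmodulin, was at 8.26, 8.37, 7.97, 8.38 and 8.07 in the amygdala and 9.04, 9.32, 9.53, 9.23 and 9.32 in the hippocampus. The groups were clearly separate and differed by −1.08 (standard error 0.11, adjusted p = 0.000279 by limma). Of 16 phosphodiesterases, which break cAMP or cGMP down, 7 were higher and 0 lower, among them Pde10a (1.11), Pde1a (1.08), Pde1c (0.62), Pde1b (0.61) and Pde4b (0.60). Pde10a, a striatal enzyme, was at 10.20, 9.75, 10.18, 9.38 and 9.03 in the amygdala and 8.54 to 8.67 in the hippocampus, so that its amygdala values were lowest on the same 2 arrays as the striatal list. Prkacb, a catalytic subunit of protein kinase A, differed by 0.82 and its regulatory partners Prkar2b and Prkar1b by 0.75 and 0.66.

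Among 44 genes of calcium signalling, 13 were higher in the amygdala and 9 lower. Members of the calcium/calmodulin kinase II family lay on both sides. Camk2a and Camk2b, the forms that are concentrated at excitatory synapses, were lower by small amounts (−0.44 and −0.63), while Camk2d, the delta form, was at 9.63, 9.67, 9.80, 9.20 and 9.49 in the amygdala and 7.62, 7.54, 7.67, 8.25 and 7.75 in the hippocampus. The delta form was apart on every array and differed by 1.79 (standard error 0.15, adjusted p = 0.000115 by limma). The calcium sensor Hpcal1 was higher (1.42) and its relative Hpca, hippocalcin, lower (−0.94). Of 63 potassium channel genes 14 were higher and 5 lower, against 5.6% and 3.24% of all genes. Kcng3 (0.95), Kcnf1 (0.91) and Kcnj16 (0.83) led the first set, and Kcnj6, a channel opened by G proteins, led the second (−0.87).

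Of 15 genes of steroid and related nuclear receptor action, 4 were higher in the amygdala and 4 lower. Nr3c2, the mineralocorticoid receptor, which binds corticosterone with high affinity, was at 7.81, 7.52, 7.57, 7.88 and 7.39 in the amygdala and 8.86, 9.05, 9.13, 9.07 and 9.07 in the hippocampus. No array came near the other group, and the difference was −1.40 (standard error 0.10, adjusted p = 5.68e-05 by limma). Nr3c1, the glucocorticoid receptor, was not called (−0.12, adjusted p = 0.639). Cyp7b1, which hydroxylates neurosteroids, and Hsd11b1, which regenerates active glucocorticoid, were lower in the amygdala (−1.25 and −0.95), and Fkbp5, a brake on the glucocorticoid receptor, differed by −0.38. On the other side were the retinoid receptors Rxrg (1.42) and Rarb (1.14), the thyroid hormone receptor Thrb (0.63) and the estrogen receptor Esr1 (0.34). Without the time label as a block Fkbp5 and Esr1 were not called (adjusted p = 0.0759 and 0.0906 by limma), and Esr1 was also not called with any 1 label left out.

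Guidance and adhesion genes, which lay down circuits in development, were called in both directions. Epha7, Epha4 and Epha6, receptors for ephrins, were lower in the amygdala (−1.43, −1.18 and −0.91), and their ligands Efnb2 and Efna5 were higher (0.93 and 0.83), with 2 of 21 genes of this family higher and 4 lower in all. Efnb2 averaged 8.42 ± 0.12 in the amygdala and 7.50 ± 0.09 in the hippocampus (SD, n = 5 arrays each). Sema3a was higher while Nrp1, the receptor subunit to which it binds, was lower at 7.40, 7.24, 7.22, 7.76 and 7.31 in the amygdala against 8.63, 8.44, 9.02, 8.47 and 8.56 in the hippocampus (difference −1.24, standard error 0.12, adjusted p = 0.000272 by limma). Sema5a, a transmembrane semaphorin, had the smallest adjusted p among the genes named (difference −1.41, standard error 0.07, adjusted p = 3.45e-05). It lay between 7.45 and 7.79 on the amygdala arrays and between 8.95 and 9.27 on the hippocampal arrays. Of 31 semaphorins, plexins and neuropilins 5 were higher and 7 lower, and of 31 cadherins 10 were higher and 5 lower. Cdh7 (1.44), Cdh18 (1.37) and Pcdh10 (1.34) led the higher cadherins, and Pcdh20 (−1.10) and Cdh12 (−1.04) the lower ones.

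Of 30 immediate early genes, which neurons switch on for minutes to hours after activity, 3 were higher in the amygdala and 4 lower, against 5.6% and 3.24% of all genes. Egr2 was at 7.23, 7.74, 8.33, 7.28 and 7.62 in the amygdala and 6.46, 7.14, 7.54, 6.73 and 7.08 in the hippocampus. The ranges overlapped, since both regions were highest at 1 hr and lowest at baseline, and it was the pairs that separated, with differences between 0.54 and 0.80 and a mean of 0.65 (standard error 0.07, adjusted p = 0.00034 by limma). Without the time label as a block Egr2 was not called (adjusted p = 0.0866). Ptgs2, an inducible prostaglandin synthase, was lower (−0.89), as was Bdnf, brain-derived neurotrophic factor (−0.51). Fos, Arc and Egr1 were not called (−0.14, −0.25 and 0.19, with adjusted p of 0.441, 0.0858 and 0.167).

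Imprinted genes are read from the copy of 1 parent only. This list was drawn up after the values had been seen, so its counts are a description. Of 37 measured, 17 were higher in the amygdala and 0 lower, with a median of 0.20. Peg10, a paternally expressed gene derived from a retrotransposon, was at 9.41, 9.80, 9.90, 9.14 and 9.77 in the amygdala and 7.67, 7.81, 7.67, 8.13 and 7.87 in the hippocampus, a difference of 1.77 (standard error 0.14, adjusted p = 0.000105 by limma). The lowest amygdala array was a full log2 unit above the highest hippocampal array. Zdbf2 (1.54), Nnat, neuronatin (1.10), Mest (1.01), Usp29 (0.92), Zim1 (0.83) and Grb10 (0.77) followed. Nnat was steady, with pairs between 1.00 and 1.22.

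A stretch of imprinted genes on chromosome 12 between Dlk1 and Dio3 carries noncoding RNAs that are read from the maternal copy, and 48 of its genes were measured. Meg3, a long noncoding RNA, was at 11.51, 11.56, 11.53, 11.46 and 11.51 in the amygdala and 10.76, 10.87, 10.79, 11.09 and 10.81 in the hippocampus. The amygdala arrays were almost identical and all lay above the hippocampal ones, by 0.65 (standard error 0.07, adjusted p = 0.000497 by limma). Rian (0.71), Rtl1 (0.58) and the snoRNA genes DQ267101 (0.66) and DQ267102 (0.79) were higher, while Dlk1 (0.03) and Dio3 (0.13) at the ends were not called. DQ267101 was near the limit (adjusted p = 0.0442 by limma), with pairs between −0.03 and 1.32, and its call was lost with either further normalization. Of the 40 miRNA genes of the stretch, 5 were higher and 0 lower, against 5.6% and 3.24% of all genes. A positive difference was found for 35 of the 40, and the median was 0.17. The 5 were Mir370 (0.43), Mir379 (0.55), Mir380 (0.34), Mir329 (0.40) and Mir543 (0.64). The calls of Mir379, Mir380, Mir329 and Mir543 were each lost under at least 1 alternative. Mir379 and Mir380 were also dim, with means of 4.94 and 5.07 in the amygdala. The values differed much between neighbours, and several miRNA genes with large means had wide pairs, such as Mir376b with a mean of 0.80 and pairs between −0.27 and 1.62.

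**Figure D3:**
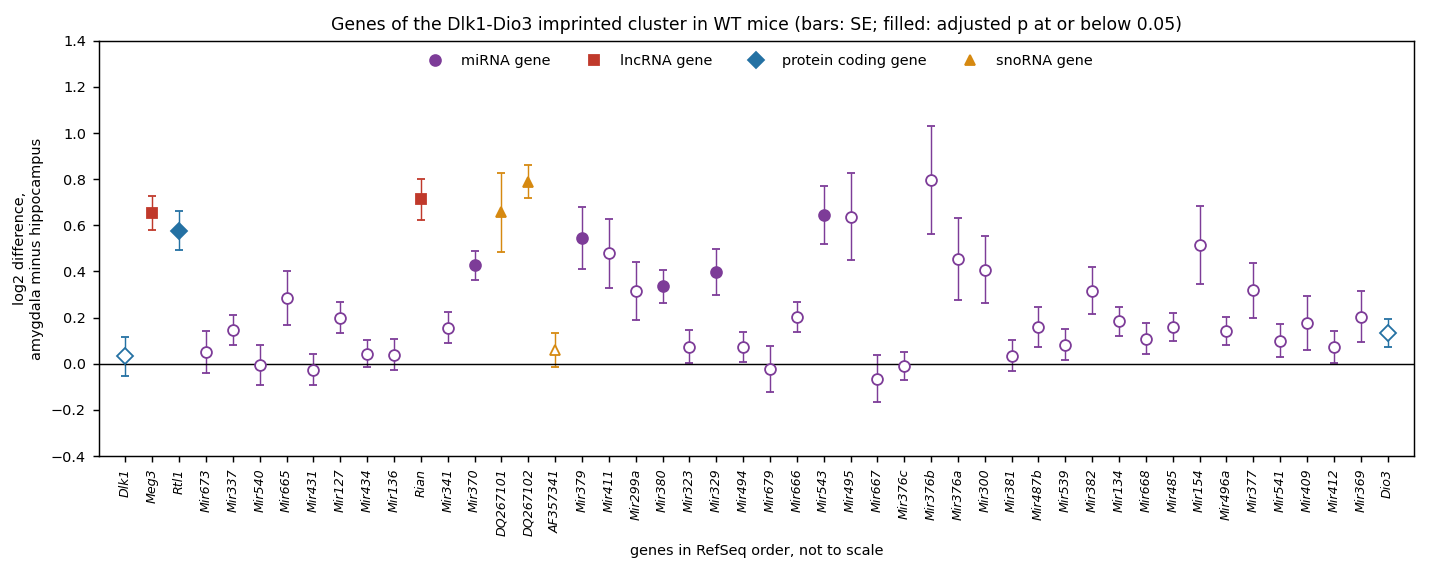
Log2 difference, WT amygdala minus WT hippocampus, with its standard error for 48 genes of the imprinted stretch on chromosome 12 in RefSeq order, with the class of gene by colour and marker and filled markers for calls. The long noncoding RNAs Meg3 and Rian lie at 0.65 and 0.71, most miRNA genes lie above 0 without a call, and Dlk1 and Dio3 at the ends lie at 0.03 and 0.13.

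miRNA genes as a class were not set apart. Of 296 measured, 12 (4.05%) were higher in the amygdala and 4 (1.35%) lower, which is below the share of all genes, 5.6% and 3.24%. The probes of such a gene cannot tell the mature miRNA from its precursor or from the transcript it is cut from. RefSeq lists mature sequences for all 16 called genes, and 1 arm each is shown for the 5 called genes of the imprinted stretch, for the genes whose host transcript was called too, and for Mir362, whose 3p arm shares its seed with that of Mir329, with the seed, bases 2 to 8, in capitals. The seed is the part that pairs with target mRNAs.

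mmu-miR-370-3p: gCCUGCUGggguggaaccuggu

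mmu-miR-379-5p: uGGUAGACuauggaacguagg

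mmu-miR-380-5p: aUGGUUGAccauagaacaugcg

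mmu-miR-543-3p: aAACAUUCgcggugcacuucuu

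mmu-miR-329-3p: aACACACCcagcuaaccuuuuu

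mmu-miR-362-3p: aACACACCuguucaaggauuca

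mmu-miR-218-5p: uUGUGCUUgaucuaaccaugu

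mmu-miR-335-5p: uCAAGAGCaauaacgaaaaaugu

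mmu-miR-153-3p: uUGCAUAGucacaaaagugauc

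mmu-miR-592-5p: aUUGUGUCaauaugcgaugaugu

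mmu-miR-128-3p: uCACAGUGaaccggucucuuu

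In RefSeq on GRCm38.p6, mmu-miR-329-3p lies at chr12:109713541-109713562 and mmu-miR-362-3p at chrX:7241984-7242005. They are the only pair with a common seed among the 30 mature sequences of the called genes, and the only 2 with it among all mouse miRNAs of the RefSeq table. Their genes were on opposite sides. Mir329 was at 6.95, 6.76, 6.99, 6.30 and 6.53 in the amygdala and 6.32, 6.19, 6.46, 6.38 and 6.21 in the hippocampus, and Mir362 was at 5.68, 5.88, 5.68, 5.88 and 5.88 in the amygdala and 6.21, 6.09, 6.35, 6.20 and 6.14 in the hippocampus. The groups of Mir329 overlapped at 48 hr and those of Mir362 did not overlap. The differences were 0.40 (adjusted p = 0.0411 by limma) and −0.40 (adjusted p = 0.0129). The call of Mir329 was lost without the time label as a block (adjusted p = 0.0552), with either further normalization, and with any label but 48 hr left out, and that of Mir362 was lost without 1 hr (adjusted p = 0.0693). In DKO mice Mir362 did not differ past the limit (0.07, adjusted p = 0.431), and the test of the difference between genotypes was not passed (adjusted p = 0.23).

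Several called miRNA genes lie inside other genes. Mir218-1 (0.70), at 7.67, 7.52, 7.31, 7.04 and 7.28 in the amygdala and 6.59, 6.60, 6.49, 6.97 and 6.66 in the hippocampus, lies in Slit2, a secreted guidance cue that differed by 0.96. The arrays did not overlap, though the 48 hr pair nearly met. Mir335 (0.53) lies in Mest, Mir592 (0.29) in Grm8, Mir153 (0.62) in Ptprn2 (0.49), Mir128-1 (0.48) in R3hdm1 (0.34) and Mir370 in Rian, and all these hosts were called higher. Without the time label as a block Mir592 and Mir379 were not called (adjusted p = 0.0936 and 0.06 by limma). Mir335 and Mir128-1 were not called with 0 hr or 1 hr left out, and Mir592 with 0 hr, 1 hr or 1 wk left out. Mir153 and the host R3hdm1 were not called with baseline, 0 hr or 1 hr left out. The hosts of the others that had one were not called, that is Chrm2 of Mir490 (0.49, adjusted p = 0.0556), Tenm4 of Mir708 (−0.04), Dleu2 of Mir15a (−0.01) and Clcn5 of Mir362 (0.09).

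Glial markers were counted in 3 lists. Of 21 oligodendrocyte markers 10 were lower and 1, the precursor gene Pdgfra, was higher (0.31). The lower ones were of modest size, between −0.51 for Ermn and −0.27 for Mbp and Cldn11, and all are genes of myelin-forming cells. Their number depended on normalization, with 7 lower after each array was centred on its median and 13 after further quantile normalization. Mbp was not called with 0 hr, 1 hr or 1 wk left out. Cldn11 was not called with any 1 label but baseline left out, and Pdgfra was not called without 0 hr. Of 17 astrocyte markers 5 were lower and 1 higher. Gfap, the filament protein of astrocytes, was at 7.06, 7.16, 6.95, 7.55 and 7.15 in the amygdala and 8.21, 8.25, 8.40, 8.13 and 8.06 in the hippocampus, a difference of −1.04 (standard error 0.11, adjusted p = 0.000334 by limma). The groups were apart by 0.51 at their nearest arrays. The median difference of the astrocyte list was −0.03. The 13 microglia markers gave no call in either direction, with 12 of the differences positive, and of 21 vascular and meningeal markers 8 were lower and 0 higher. In punches of bulk tissue, fewer cells of a type and less RNA per cell cannot be told apart.

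The size of the differences varied over the labels. For the 15 genes highest in the amygdala the median difference was 2.25, 2.17, 2.25, 1.14 and 1.82 in the order of the labels. The pair of 48 hr was the smallest for 14 of these genes, and for all 15 the 48 hr array was the highest of the hippocampus. For the 15 genes lowest in the amygdala, with Vwa3b by its brightest transcript cluster, the medians were −1.41, −1.56, −1.75, −1.25 and −1.69, with the smallest difference at 48 hr for 10 genes and the 48 hr array the highest of the amygdala for 11. Among the 1355 calls higher in the amygdala, 57.9% had their smallest difference at 48 hr. Among the 846 lower calls the baseline pair was the smallest most often (37.7%), ahead of 48 hr (31.7%). With 1 array per region and label, a time effect cannot be told apart from the tissue that was punched. Nts (pairs between 0.73 and 3.01), Tac1 (1.36 to 3.41), Vwc2l (0.67 to 2.23) and 1 transcript cluster each of Pgap1 (0.13 to 2.14) and Unc13c (0.30 to 2.49) had the widest spread over the pairs among calls higher in the amygdala. The brightest transcript clusters of these last genes ran between 0.69 and 1.64 for Pgap1 and between 0.24 and 1.01 for Unc13c. Unc13c has 7 transcript clusters, 6 of them called higher, with differences between 0.61 and 1.55. Among lower calls the widest spread was that of Mgp, a matrix protein of vessels (−1.72 to −0.44), Il16 (−1.48 to −0.44), Iyd (−2.17 to −0.87), Dsp (−1.92 to −0.92) and Tdo2 (−2.34 to −1.28).

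**Figure D4:**
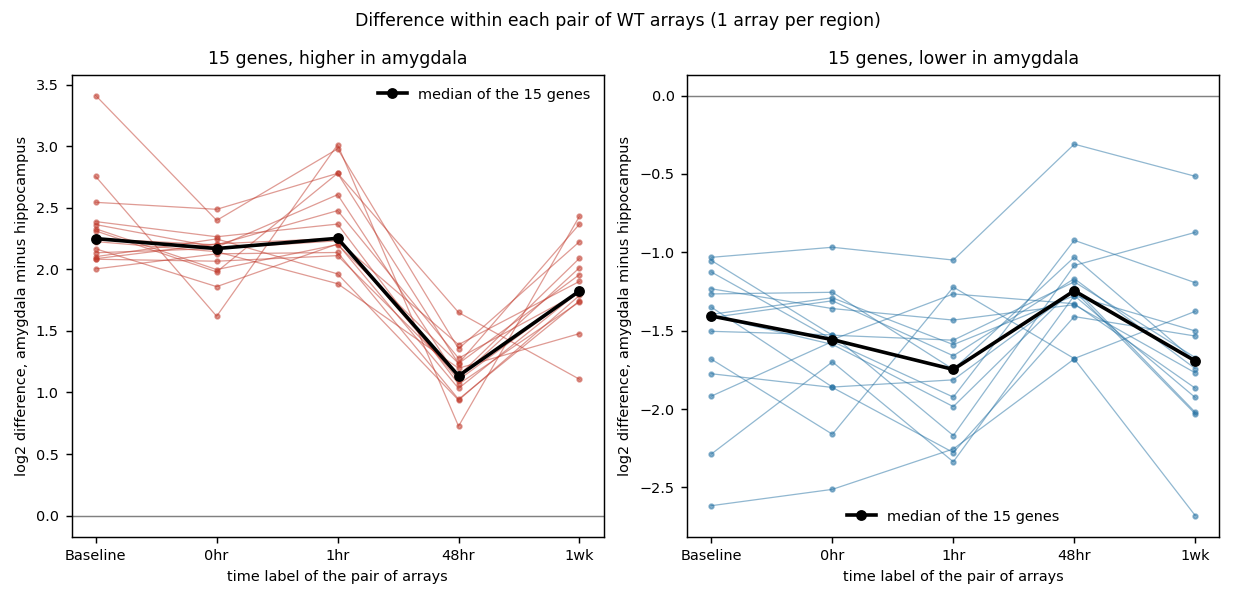
Log2 difference within each pair of WT arrays, amygdala minus hippocampus, against the time label of the pair, for the 15 genes with the largest positive differences (left) and the 15 with the largest negative differences (right), with thin lines for genes and a black line for their median. The medians come nearest to 0 at 48 hr, at 1.14 on the left and −1.25 on the right.

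The arrays of DKO mice gave a separate measure of the regions. Of the transcript clusters called higher in the WT amygdala, 966 (71.3%) were also called higher in the DKO amygdala, and 741 (87.6%) of the lower ones were also called lower. These were 24.7% and 18.5% of the DKO calls, which numbered 3914 higher (13.6% of those tested) and 4005 lower (13.9%). Of the 2201 WT calls, 71 had the opposite sign in DKO mice, and 4 were called in the opposite direction. The difference was 1.83 for Tac1, 2.09 for Meis2 and −2.68 for Prox1 in DKO mice, all called.

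A dependence of the regional difference on genotype was called for 2 transcript clusters (0.00693%). Of the 28853 tested, 5064 had an unadjusted p under 0.05 by limma, which is more than a share of 0.05. The 2 calls thus do not show that all other regional differences were equal in both genotypes. The first is Adcy1, a gene disrupted in DKO mice, which averaged 7.65 ± 0.11 in the DKO amygdala and 7.72 ± 0.05 in the DKO hippocampus (SD, n = 5 arrays each), below all WT arrays of the same region. The regional difference of −1.08 in WT mice stood against −0.07 in DKO mice, which was not called (adjusted p = 0.401). The second is Vav3, a member of the thalamus list. On the WT arrays it was at 6.13, 5.95, 6.12, 6.0 and 5.93 for the amygdala, against 6.84, 6.98, 7.11, 6.97 and 7.25 for the hippocampus. In DKO mice it was at 5.68, 5.81, 5.77, 5.60 and 5.70 in the amygdala and 7.62, 7.37, 7.63, 7.76 and 7.85 in the hippocampus. Both regions shifted outward, so that the difference was −1.01 in WT mice and −1.93 in DKO mice. Tcf7l2 and Prkcd, other genes of the thalamus list, had regional differences of −1.09 and −0.52 in WT mice and −1.80 and −1.25 in DKO mice. The mean level of the thalamus list was 6.88 to 7.07 in the DKO amygdala and 7.57 to 7.95 in the DKO hippocampus, and its part in the result for Vav3 was not tested.

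**Figure D5:**
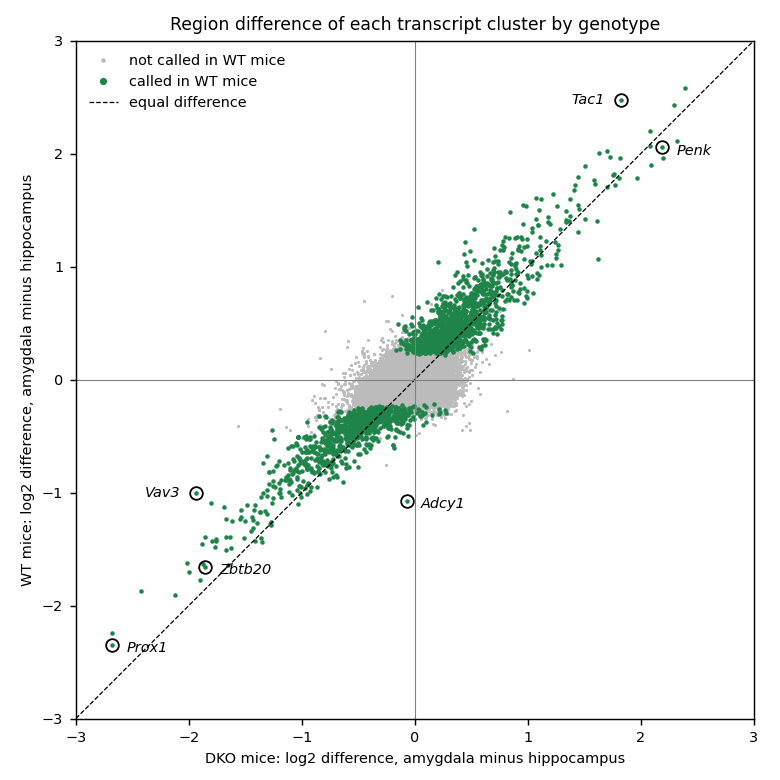
Log2 difference, amygdala minus hippocampus, of each transcript cluster in WT mice (vertical axis) against DKO mice (horizontal axis), with calls in WT mice in green and a dashed line where both are equal. Most calls lie along the line, Adcy1 lies at −1.08 in WT and −0.07 in DKO mice, and Vav3 at −1.01 in WT and −1.93 in DKO mice.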

How the data were processed

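Pooled RNA of both regions was hybridised to arrays of the type Mouse Gene 1.0 ST from Affymetrix. The deposited log2 values were made by the authors with RMA in Affymetrix Expression Console, which corrects the background, normalizes between arrays and combines the probes of a transcript cluster. The genome build behind the array's annotation is not given in the sources used here, so gene coordinates are not printed except with RefSeq sequences on GRCm38.p6. Arrays have no read depth, and their number limits the precision. GEO's labels gave the groups.

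The region difference was fitted on the 10 WT arrays with lmFit and eBayes of limma 3.58.1 in R 4.3.3 with the time label as a block, without a filter on dim transcript clusters, and p-values were adjusted by Benjamini-Hochberg over all 28853 transcript clusters. Dependence on genotype was fitted over all 20 arrays. Python 3.11.15, numpy 2.4.6, pandas 2.3.3 and matplotlib 3.10.9 were used for tables and figures. Of the transcript clusters 21789 had 1 symbol, 1621 several and 5443 none. A gene was given by the 1-symbol transcript cluster with the highest mean over the WT arrays.

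The genes named were the 15 with the largest difference in each direction among calls with the same sign in all 5 pairs, the 10 with the widest gap between the regions, the 5 whose difference varied most over the pairs, up to 10 for the dependence on genotype, and members of 32 gene lists, which held 799 genes of which 741 were measured. Members and lists were chosen with earlier results of these data known. Examples from the lists were chosen after their values were seen. On simulated data with 200 changed transcript clusters, 44% of differences of 1.25-fold and 97% of those of 1.5-fold were recovered for the region difference, and 3.42% of calls were false. For the dependence on genotype 86% of 1.5-fold and 98% of 2-fold differences were recovered, and 5.15% of calls were false. The simulated noise was independent for each value, and shifts of whole arrays were not part of it. These rates therefore need not hold for the arrays of the study. Alternatives were the fit without the block, further normalization, filters on level, array weights, other limits and leaving out arrays or labels.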

Additional observations from a re-analysis of the deposited data

Results flagged for a closer look

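In 23 of 416 groups of 5 arrays, those of the genes named, 1 array lay far from the other 4 by Dixon's test, which chance alone does in about 1 of 20 groups. Each value is followed by the range of the other arrays on the log2 scale. In the WT amygdala the 1 wk array was below the others for Grp (9.22 against 9.70 to 9.79), Epha7 (8.85 against 9.27 to 9.44), Gria1 (10.92 against 11.13 to 11.21), Adcy3 (7.14 against 7.24 to 7.28) and Hpca (8.29 against 8.77 to 8.89). In the WT amygdala the 0 hr array was above the others for Ldb2 (11.08 against 10.80 to 10.88). In the WT amygdala the 48 hr array was below the others for Gabra3 (9.91 against 10.09 to 10.15). In the WT amygdala the 1 hr array was below the others for Vip (6.69 against 6.85 to 6.91). In the WT amygdala the 1 hr array was above the others for Fkbp5 (7.30 against 6.71 to 6.84) and Egr1 (8.30 against 7.96 to 8.04). In the WT hippocampus the 48 hr array was below the others for Npnt (7.65 against 8.0 to 8.04). In the WT hippocampus the 48 hr array was above the others for Man1a (7.96 against 7.31 to 7.47), Penk (10.67 against 9.65 to 9.87), Meis2 (7.86 against 7.05 to 7.14), Nr2f2 (7.80 against 6.87 to 7.14), Camk2d (8.25 against 7.54 to 7.75), Nr3c1 (8.23 against 7.74 to 7.81) and Ptprn2 (8.80 against 8.59 to 8.64). In the WT hippocampus the 1 wk array was above the others for Zic1 (7.70 against 7.10 to 7.26). In the WT hippocampus the baseline array was below the others for Scg2 (9.27 against 9.57 to 9.68), Rian (9.34 against 9.82 to 9.91) and Cldn11 (8.04 against 8.20 to 8.22). In the WT hippocampus the 1 hr array was above the others for Camk2a (11.56 against 11.36 to 11.41).

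The regional difference depended on genotype for Adcy1, by −1.01 (WT minus DKO, standard error 0.13, adjusted p = 0.00277 by limma), and for Vav3, by 0.93 (standard error 0.12, adjusted p = 0.00277).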

How the results depend on the processing

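Against 1355 transcript clusters higher and 846 lower in the WT amygdala, an adjusted p of 0.01 left 687 and 461, a limit of 1.5-fold 412 and 246 and a limit of 2-fold 114 and 63. Array weights gave 2024 and 1330, and the cause was not tested. Leaving out both arrays of a label gave 721 to 1838 higher and 470 to 1046 lower, with the lowest counts without 1 hr (721 and 470) and without 0 hr (764 and 511). Leaving out single arrays without the time block gave 1164 to 1681 higher and 704 to 897 lower. The methods' test gave 1341 and 748. For the dependence on genotype, 1 transcript cluster instead of 2 was called above the median level, and 1 to 2 without a label.

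Without the replicate block 1576 were higher and 900 lower, and 3 depended on genotype. Over all transcript clusters the labels did not pair the arrays as a rule. Deviations of same-label arrays correlated at −0.27, −0.04, 0.53, −0.39 and 0.27 from baseline to 1 wk, and 1 of 5 amygdala arrays correlated best with its own label. Single genes could still follow the label, as Egr2 did, with both regions highest at 1 hr and lowest at baseline. Without the block 6 of the 195 called genes named lost their call.

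Under at least 1 alternative 38 of these 195 genes lost their call, 33 of them with a label left out, and none changed sign. Of 13 genes that were not called, 4 were called under an alternative. None of 32 list medians moved by more than the spread between arrays. Detection above background was not analysed here, which limits what can be read from dim genes such as Tdo2.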
